A study of Mus musculus with 8 samples.

Results

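The 10 genes described here encode immediate early transcription factors of the AP-1 and EGR families: the FOS subunits Fos, Fosb and Fosl2, the JUN subunits Jun, Junb and Jund, the related factor Atf3, and the zinc finger factors Egr1, Egr2 and Egr3. They were taken by name from 22180 named genes, each through the probe set that carried its symbol alone. Among the 10, only Jund had several such probe sets, and the brighter one by its mean over the 8 arrays stands for it. All 10 passed the filter on low signal that left 17576 genes for testing. The RNA came from 3 bone marrow populations of C57/Bl6 mice, whose age the labels give as 8 weeks. LT-HSC, the long-term hematopoietic stem cells, were Lin-Sca1+Kit+ cells gated as CD48-CD150+CD34- and had 2 arrays, numbered replicates 1 and 3. ST-HSC, the short-term stem cells (3 arrays), had the same gate but for CD34+, and multipotent progenitors (MPP, 3 arrays) were CD48+CD150-CD34+ cells of that compartment. The descriptions state no treatment for any group. The protocol shared by all samples instead has the sorted cells kept in DMSO for 2 hours, passed through primary recipients for 1 year and secondary recipients for 3 months, and only then used for RNA. Which of these histories the arrays have was not settled here, and every group carries the same conflict. No label says that the arrays of a population came from separate animals or pools, and the p-values therefore reflect the spread among these samples alone, part or all of which may be technical.

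Immediate early genes are held ready in resting cells and are transcribed within minutes of a growth factor, cytokine or stress signal, without new protein synthesis. FOS and JUN proteins pair through leucine zippers to form AP-1, which binds its own short DNA motif, while EGR proteins bind a GC-rich motif through zinc fingers. Their mRNAs are short-lived, so their amount follows recent signalling. In hematopoietic cells, EGR1 is known for holding stem cells in quiescence and JUNB for restraining stem cell proliferation and myelopoiesis.

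Signal inputs reach these genes through DNA elements just upstream of their starts. The 4 windows are printed here because they show the 3 kinds of element that tie the families to their signals: the core TGACG of the cyclic AMP response element, the EGR motif GCGNGGGCG and the CArG box that serum response factor binds. Each is the stretch of 250 bases before a RefSeq start on GRCm38.p6, outside the transcript, written 5′ to 3′ on the gene's strand, and capitals mark the motif matches.
Fos (chr12:85473640-85473889, plus strand): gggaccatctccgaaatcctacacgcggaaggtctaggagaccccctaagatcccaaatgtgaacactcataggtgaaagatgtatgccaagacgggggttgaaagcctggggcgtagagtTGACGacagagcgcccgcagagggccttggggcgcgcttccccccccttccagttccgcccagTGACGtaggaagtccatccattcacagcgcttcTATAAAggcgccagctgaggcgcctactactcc
Fosb (chr7:19310046-19310295, minus strand): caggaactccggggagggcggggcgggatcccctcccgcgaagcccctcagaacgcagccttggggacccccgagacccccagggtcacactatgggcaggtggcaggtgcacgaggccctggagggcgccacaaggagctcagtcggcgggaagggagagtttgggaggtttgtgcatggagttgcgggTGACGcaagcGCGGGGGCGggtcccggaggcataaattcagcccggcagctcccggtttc
Junb (chr8:84978749-84978998, minus strand): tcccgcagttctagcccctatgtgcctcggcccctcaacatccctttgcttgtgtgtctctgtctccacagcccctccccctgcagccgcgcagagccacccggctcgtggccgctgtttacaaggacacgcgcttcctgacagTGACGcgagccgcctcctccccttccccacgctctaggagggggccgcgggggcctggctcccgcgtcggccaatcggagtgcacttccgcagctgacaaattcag
Egr2 (chr10:67537316-67537565, plus strand): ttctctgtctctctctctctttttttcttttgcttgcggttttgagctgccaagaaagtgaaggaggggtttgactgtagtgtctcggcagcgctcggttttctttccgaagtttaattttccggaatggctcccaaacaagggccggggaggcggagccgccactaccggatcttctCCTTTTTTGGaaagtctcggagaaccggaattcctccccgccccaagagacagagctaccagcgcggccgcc
The Fos window holds TGACG at 129 and at 66 bases before the start and a TATAAA box at 33 bases. In the Fosb window TGACG begins 60 bases and an EGR motif 50 bases before the start, and in the Junb window TGACG begins 106 bases before it. Egr2 had 5 windows, and the one printed was picked for its motif, as the most upstream with a CArG box. It has the box at 72 bases. Windows were matched for 8 of the 10 genes, those other than Egr1 and Egr3. Among the other genes, whose windows are not printed, Fosl2 has an EGR motif at 79 bases. Atf3 has TGACG on the opposite strand 7 bases before the start, and the windows of Jun and Jund hold none of the motifs searched. The other windows of Egr2 are not described here. Both strands were searched for these motifs, for the full site TGACGTCA, of which TGACG is a piece, and for the AP-1 site TGANTCA. Over all 32851 windows of the same length, TGACG occurs in 17.8%, TATAAA in 12.4%, TGANTCA in 6.75%, GCGNGGGCG in 4.70%, TGACGTCA in 1.55% and a CArG box in 1.47%. These shares are per window, so the CArG box of an Egr2 window picked from 5 cannot be set against them. Elements more than 250 bases before the start were not searched. A match describes letters only and says nothing of binding in these cells.

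Of the gate markers that separate the populations, only Slamf1 followed the labels without overlap: this gene, which encodes CD150, read 7.25 to 7.78 in LT-HSC and ST-HSC and 4.77 to 5.46 in MPP. Cd34 read 8.50 and 10.20 in LT-HSC, gated as CD34-, 9.55, 10.15 and 10.07 in ST-HSC and 10.85 to 11.00 in MPP, so LT-HSC replicate 3 exceeded every ST-HSC array. Cd48 read 5.92 and 6.63 in LT-HSC, 7.49, 6.51 and 6.57 in ST-HSC and 7.84, 6.65 and 6.96 in MPP, and ST-HSC replicate 1, gated as CD48-, lay above MPP replicates 2 and 3. The arrays least like the others were the first replicates of LT-HSC and of ST-HSC, with median correlations of 0.956 and 0.968 against 0.976 to 0.985 for the rest, so differences without either or both are given with the genes below. Markers of some other bone marrow cells followed the replicate number. Of 14 granulocyte and monocyte genes 12 were highest in replicate 1 of every population, as were 5 of 5 erythroid, 6 of 10 stromal and endothelial, 2 of 5 B cell, 0 of 6 T and NK cell and 0 of 4 megakaryocyte genes, where 4.89% of all genes were. The first 2 counts were 11 and 5 with quantile normalization and 12 and 3 with median centring. The megakaryocyte genes differed between populations instead: Itga2b was higher in ST-HSC than in LT-HSC by 1.18 (limma adjusted p = 0.00814), and in MPP minus ST-HSC it was at -1.17 and Pf4 at -2.00 (limma adjusted p = 0.0141 and 0.034). Cd48, Itga2b and Pf4 were singled out after their values were seen.

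In the model of population means, none of the 10 factors differed between the populations beyond the spread of the arrays. For each of them the arrays of any population overlapped those of the others, and 9 of the 10 read above the reference for silent genes on every array (Egr3, described with the EGR factors, was the exception). By limma, fitted on all genes with Benjamini-Hochberg adjustment and a call at an adjusted p under 0.05, 0 of 10 were called in MPP minus LT-HSC, where 0.125% of all genes were. The same count was 0 of 10 in ST-HSC minus LT-HSC (0.933% of all genes), 0 of 10 in MPP minus ST-HSC (0.193%) and 0 of 10 in the F test over the 3 populations (0.905%). At an unadjusted p under 0.05 there were again 0 in each. The groups did not overlap for 24.7%, 23.3% and 14.2% of all genes in these 3 comparisons, and for 0 of the 10.

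By mean, 7 of the 10 were higher in MPP than in LT-HSC, as were 57.2% of all genes. The median log2 difference was 0.13 beside 0.06 over all genes. Replicate 1, low for most of the 10, is 1 of 2 LT-HSC arrays and 1 of 3 MPP arrays, which weighs on this comparison. With the replicate number as a block, which the labels do not establish for LT-HSC, 5 of 10 were positive. Their median was then -0.01, beside 0.07 over all genes. In MPP minus ST-HSC, 8 of 10 were positive, beside 51.7% of all genes, with a median of 0.43 beside 0.01. ST-HSC minus LT-HSC was positive for 5 of 10 and for 52% of all genes (median -0.02 beside 0.02). Under quantile normalization these counts were 7, 8 and 2 of 10 for MPP minus LT-HSC, MPP minus ST-HSC and ST-HSC minus LT-HSC, and under median centring they were 9, 8 and 6. Median centring moved the median of all genes to 0.18 in MPP minus LT-HSC and to 0.13 in ST-HSC minus LT-HSC. The 0.43 fell to 0.04, with 6 of 10 positive, when ST-HSC replicate 1 was left out. The 0.13 turned to -0.29, with 2 of 10 positive, when LT-HSC replicate 1 was. Both settings keep MPP replicate 1, the lowest MPP array for 9 of the 10. With all arrays numbered 1 left out, an alternative chosen after seeing the data, MPP minus ST-HSC had a median of 0.26, with 8 of 10 positive. MPP minus LT-HSC then had 0.07, with 6 of 10, and ST-HSC minus LT-HSC -0.16, with 2 of 10. The limits of these comparisons are wide: the 95% interval of the MPP minus LT-HSC difference ran from -0.45 to 0.74 for Jun and from -0.97 to 2.12 for Atf3. These intervals hold differences of more than 1 log2 unit for Atf3 in each comparison, so a missed threshold does not show equal levels. In bulk RNA of sorted cells, fewer cells that express a gene and less of its RNA per cell cannot be told apart.

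**Figure D1:**
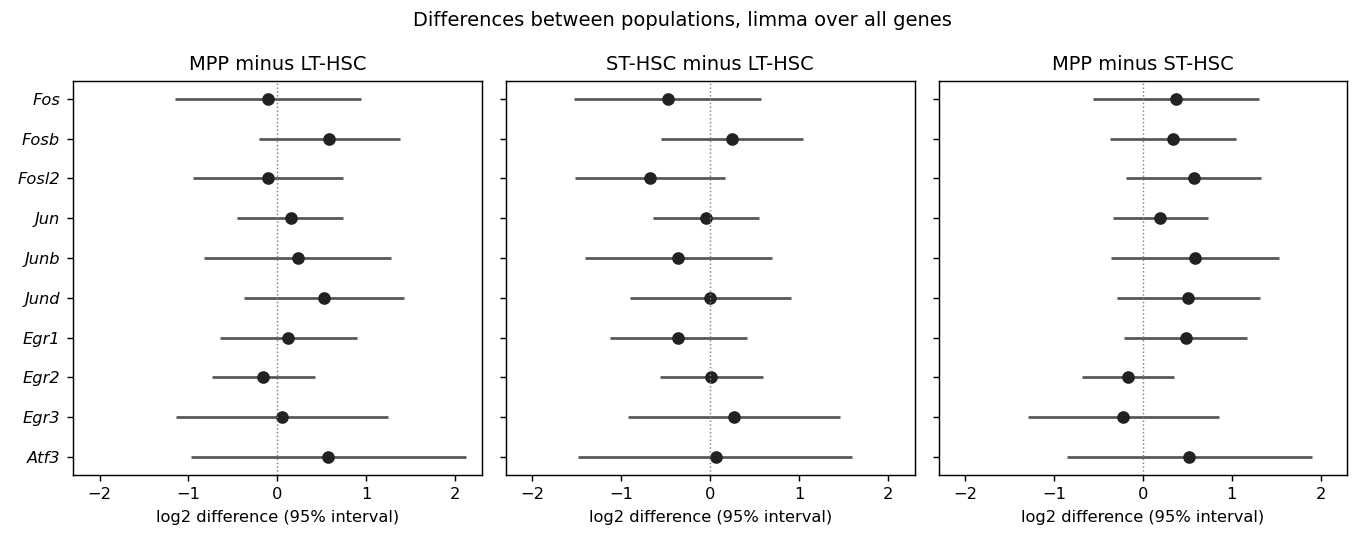
Log2 difference between population means for each of the 10 genes (points) with limma's 95% confidence interval (lines), in 3 panels for MPP minus LT-HSC, ST-HSC minus LT-HSC and MPP minus ST-HSC; the dotted line marks no difference. Every interval crosses 0, and that of Atf3 in MPP minus LT-HSC runs from -0.97 to 2.12.

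The FOS subunits cannot pair with each other and need a JUN partner. Fos itself (probe set 17277387, Entrez gene 14281), the founding subunit, did not follow the order of arrays seen in the other 9 genes. It read 8.59 and 9.26 in LT-HSC, 7.83, 8.45 and 9.05 in ST-HSC, and 9.27, 7.76 and 9.42 in MPP replicates 1, 2 and 3. The lowest and the highest of its 8 values were both MPP arrays, so the spread within MPP covered the other populations. The LT-HSC mean was 8.92 ± 0.48 (SD, n = 2), that of ST-HSC 8.45 ± 0.61 (SD, n = 3) and that of MPP 8.82 ± 0.92 (SD, n = 3), and its differences were -0.11 (SE 0.48) for MPP minus LT-HSC, -0.48 (SE 0.48) for ST-HSC minus LT-HSC and 0.37 (SE 0.42) for MPP minus ST-HSC, with limma adjusted p of 0.936, 0.742 and 0.999. Without the 2 arrays least like the others they were -0.45, -0.51 and 0.07.

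Fosb (17487211, Entrez gene 14282), a close relative of Fos that also yields a short, longer-lived splice form, passed no test, and its means ascended in the order LT-HSC, ST-HSC, MPP. Its signal was 8.48 and 9.30 in LT-HSC, 8.50, 9.45 and 9.45 in ST-HSC and 8.92, 9.78 and 9.71 in MPP. The 3 lowest values were the replicate 1 arrays of the 3 populations. The means of 8.89 ± 0.58 (SD, n = 2), 9.13 ± 0.55 (SD, n = 3) and 9.47 ± 0.48 (SD, n = 3) gave 0.58 for MPP minus LT-HSC (SE 0.36, 95% interval -0.21 to 1.38, limma adjusted p = 0.557), the lowest adjusted p of the 10 in that comparison. The neighbouring steps of 0.24 (ST-HSC minus LT-HSC) and 0.34 (MPP minus ST-HSC) had limma adjusted p of 0.841 and 0.999. The 0.58 was 0.17 without LT-HSC replicate 1 and 0.99 without LT-HSC replicate 3, and the 0.34 was 0.02 without ST-HSC replicate 1. With all arrays numbered 1 left out they were 0.45 and 0.30.

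Fosl2 (17436237, Entrez gene 14284), the FOS-related antigen that lacks the strong activation domain of Fos, was lowest by mean in ST-HSC. Its arrays read 7.36 and 7.91 in LT-HSC, 6.39, 7.50 and 6.98 in ST-HSC and 6.94, 8.24 and 7.40 in MPP. ST-HSC replicate 2 lay above LT-HSC replicate 1, so these populations overlapped by that array. With means of 7.63 ± 0.38 (SD, n = 2), 6.96 ± 0.55 (SD, n = 3) and 7.53 ± 0.66 (SD, n = 3), the ST-HSC value less that of LT-HSC was -0.68 (SE 0.38, 95% interval -1.52 to 0.17, limma adjusted p = 0.548) and MPP minus ST-HSC was 0.57 (SE 0.34, 95% interval -0.19 to 1.33, limma adjusted p = 0.921). Both were the lowest adjusted p of the group in their comparison, as was the F test's 0.655. MPP minus LT-HSC was -0.11 (limma adjusted p = 0.92). Without the 2 arrays least like the others the 3 differences were -0.66, 0.29 and -0.38. With all arrays numbered 1 left out they were -0.66, 0.58 and -0.08. With the replicate number as a block, which the labels do not establish for LT-HSC, Fosl2 was called in ST-HSC minus LT-HSC at -0.99 (limma adjusted p = 0.0126) and in the F test (limma adjusted p = 0.0215).

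JUN subunits can pair with each other as well as with FOS proteins. Jun (17427312, Entrez gene 16476), the prototype activator of the family, varied least of the 3. It read 10.94 and 11.52 in LT-HSC, 10.70, 11.45 and 11.39 in ST-HSC and 11.10, 11.61 and 11.41 in MPP. All populations spanned nearly the same range, with the replicate 1 array lowest in each. Its means of 11.23 ± 0.41 (SD, n = 2), 11.18 ± 0.42 (SD, n = 3) and 11.37 ± 0.26 (SD, n = 3) differed by at most 0.19 (MPP minus ST-HSC, SE 0.24, limma adjusted p = 0.999). That difference was -0.05 without ST-HSC replicate 1 and 0.09 with all arrays numbered 1 left out.

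Junb (17511259, Entrez gene 16477), a weaker activator that can oppose Jun, gave 8.60 and 9.55 in LT-HSC, 7.76, 9.43 and 8.97 in ST-HSC and 8.60, 9.77 and 9.55 in MPP. ST-HSC replicate 1 was the lowest array, and the other 2 ST-HSC arrays lay among those of the other populations. Junb averaged 9.08 ± 0.67 (SD, n = 2), 8.72 ± 0.86 (SD, n = 3) and 9.31 ± 0.62 (SD, n = 3), and MPP minus ST-HSC was 0.59 (SE 0.43, 95% interval -0.36 to 1.53, limma adjusted p = 0.984). It was 0.11 without ST-HSC replicate 1, 0.94 without MPP replicate 1 and 0.46 with all arrays numbered 1 left out. Jund (17510127, Entrez gene 16478), which in most tissues is expressed more steadily than the other JUN genes, read 10.22 and 11.32 in LT-HSC, 10.01, 11.18 and 11.14 in ST-HSC and 10.78, 11.55 and 11.55 in MPP. Here too the replicate 1 arrays were the 3 lowest. Its means of 10.77 ± 0.78 (SD, n = 2), 10.78 ± 0.67 (SD, n = 3) and 11.29 ± 0.45 (SD, n = 3) gave MPP differences of 0.52 from LT-HSC (SE 0.41, limma adjusted p = 0.628) and 0.51 from ST-HSC (SE 0.37, limma adjusted p = 0.979). Without LT-HSC replicate 1 the former was -0.03, and without ST-HSC replicate 1 the latter was 0.13. With all arrays numbered 1 left out the former was 0.23 and the latter 0.39. The other probe set of Jund (17502001) also had its 3 lowest values, 8.58, 8.24 and 8.64, in the replicate 1 arrays.

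Atf3 (17231033, Entrez gene 11910), a stress-induced factor of the ATF/CREB family that pairs with JUN proteins and mostly represses, spread most of the 10 from array to array. It read 7.96 and 9.83 in LT-HSC, 7.79, 9.61 and 9.45 in ST-HSC and 8.29, 10.42 and 9.69 in MPP. The replicate 1 arrays, at 7.79 to 8.29, lay apart from the other 5 arrays, at 9.45 to 10.42, in whichever population. Atf3 was lower in replicate 1 than in the mean of the population's other arrays by a log2 difference of -1.87 in LT-HSC, -1.74 in ST-HSC and -1.77 in MPP. The LT-HSC mean was 8.89 ± 1.32 (SD, n = 2), that of ST-HSC 8.95 ± 1.01 (SD, n = 3) and that of MPP 9.47 ± 1.09 (SD, n = 3), and the differences between populations, 0.57 (SE 0.70) for MPP minus LT-HSC, 0.06 (SE 0.70) for ST-HSC minus LT-HSC and 0.52 (SE 0.63) for MPP minus ST-HSC, were smaller than that spread (limma adjusted p = 0.755, 0.985 and 0.999). Without the 2 arrays least like the others they were -0.36, -0.30 and -0.06. With all arrays numbered 1 left out they were 0.23, -0.30 and 0.53.

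Egr1 (17349514, Entrez gene 13653), the EGR factor best known in stem cells, was steady apart from a single array. It read 10.91 and 11.06 in LT-HSC, 9.77, 11.13 and 10.99 in ST-HSC and 10.77, 11.25 and 11.31 in MPP. ST-HSC replicate 1, at 9.77, lay below the other arrays, which ran from 10.77 to 11.31. The LT-HSC mean was 10.99 ± 0.11 (SD, n = 2), that of ST-HSC 10.63 ± 0.75 (SD, n = 3) and that of MPP 11.11 ± 0.29 (SD, n = 3). Its ST-HSC mean less that of LT-HSC was -0.36 (SE 0.35; limma adjusted p = 0.735), and with all arrays numbered 1 left out it was -0.01 (SE 0.18, limma adjusted p = 0.997). MPP minus ST-HSC was 0.48 (SE 0.31, limma adjusted p = 0.949), or 0.22 (SE 0.15, limma adjusted p = 0.642) without those arrays and 0.05 without ST-HSC replicate 1 alone.

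Egr2 (17233993, Entrez gene 13654), known for its roles in myelination and in lymphocyte tolerance, varied little between populations. It read 6.41 and 6.88 in LT-HSC, 6.50, 6.73 and 6.73 in ST-HSC and 5.96, 6.90 and 6.57 in MPP. MPP held both the lowest and the highest value. The LT-HSC mean was 6.64 ± 0.33 (SD, n = 2), that of ST-HSC 6.65 ± 0.13 (SD, n = 3) and that of MPP 6.48 ± 0.48 (SD, n = 3), and MPP minus ST-HSC was -0.17 (SE 0.24, limma adjusted p = 0.999), or -0.25 without ST-HSC replicate 1. Egr3 (17301718, Entrez gene 13655), the third EGR factor, was the one gene of the 10 near background. Taking sensory receptor genes as a reference for genes that are off, Egr3 exceeded their 95th percentile on 5 of 8 arrays, and the other 9 genes did so on all 8. It read 5.30 and 6.04 in LT-HSC, 4.76, 6.87 and 6.18 in ST-HSC and 5.02, 6.39 and 5.74 in MPP. The 3 arrays under the reference were those numbered 1. Means of 5.67 ± 0.53 (SD, n = 2), 5.94 ± 1.07 (SD, n = 3) and 5.72 ± 0.69 (SD, n = 3) differed by at most 0.27 (ST-HSC minus LT-HSC; SE of 0.54, limma adjusted p = 0.89), a difference that ran from -0.20 to 0.85 when 1 array at a time was left out.

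**Figure D2:**
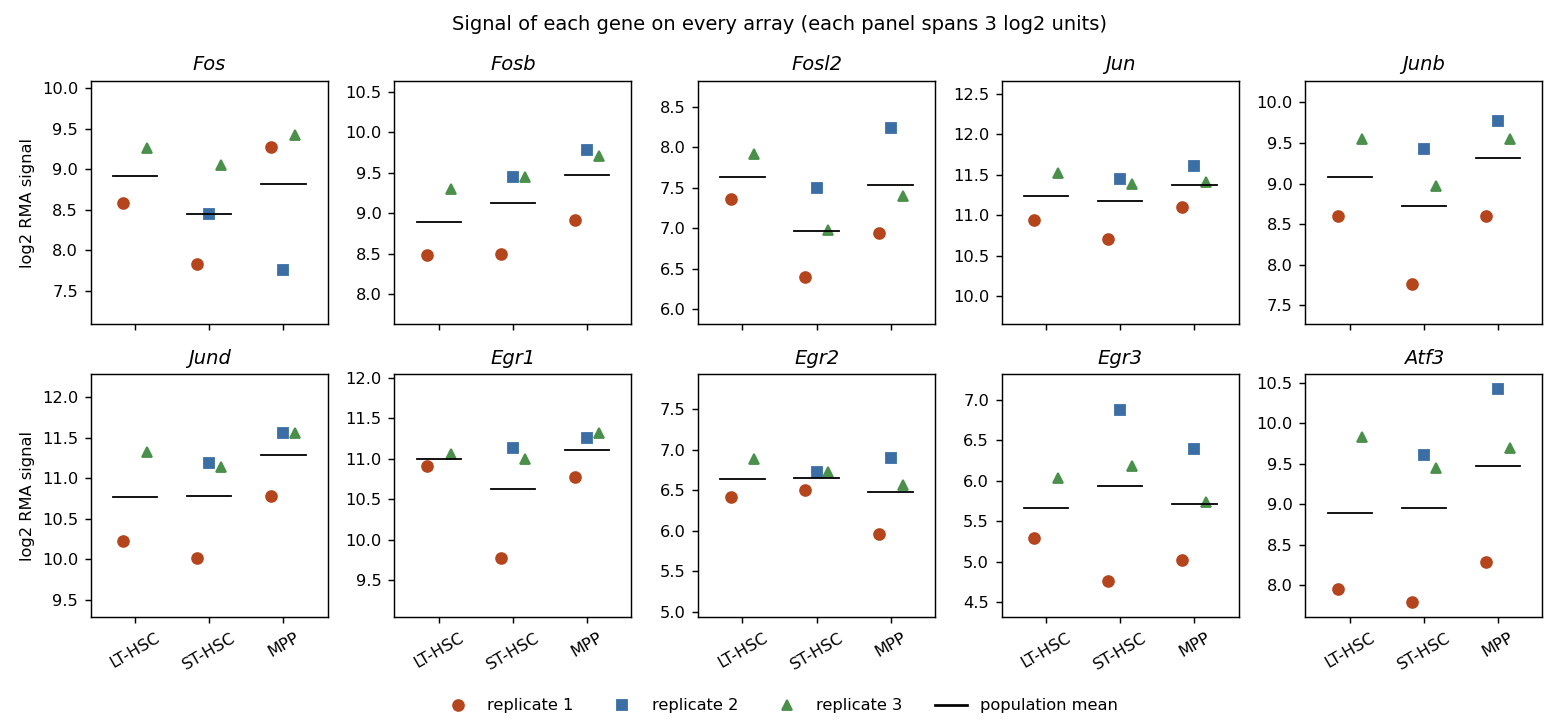
Log2 RMA signal (y axis, each panel spanning 3 log2 units) of each of the 10 genes on all 8 arrays, grouped by population along the x axis; circles, squares and triangles are replicates 1, 2 and 3, and bars are population means. Replicate 1 is the lowest array of its population in all panels except Fos, where MPP replicate 2 at 7.76 is the lowest of MPP.

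What 9 of the 10 genes shared was that replicate 1 was the lowest array in each population. Replicate 1 was the lowest array for 10 of 10 genes in LT-HSC, 10 of 10 in ST-HSC and 9 of 10 in MPP, where 59.7%, 44.6% and 33.7% of all genes had their lowest value in it. It was the lowest in all 3 populations for 9 of the 10, all but Fos, beside 10.6% of all genes, and these 4 counts were the same with quantile normalization and with median centring. Against the mean of the population's other arrays, the median of the 10 genes in replicate 1 was -0.71 in LT-HSC, -1.05 in ST-HSC and -0.80 in MPP, where all genes had medians of -0.14, -0.04 and 0.01. Egr1 in LT-HSC, at -0.15, was close to the median of all genes there. MPP replicate 1 did not stand apart from the other arrays by its correlation, at a median of 0.982, and Atf3 and Junb still stood at -1.77 and -1.06 there. Within populations the 10 genes varied more than most: the residual SD of the fit had a median of 0.59 over the 10 and 0.23 over all genes, and 8 of the 10 exceeded the 90th percentile of 0.39. Atf3 had 1.11 and Egr3, whose replicate 1 values lay under the reference for silent genes, 0.84, while Egr2 had 0.35 and Jun 0.36.

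**Figure D3:**
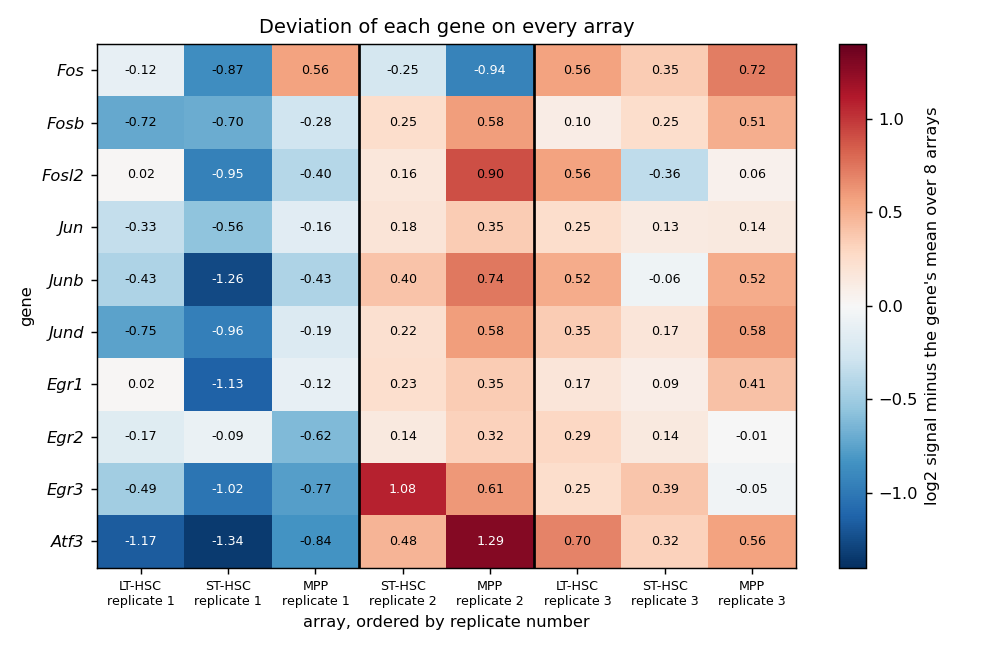
Log2 signal minus the gene's mean over 8 arrays for the 10 genes (rows) on each array (columns, ordered by replicate number, thick lines between numbers); blue is below and red above the mean, and each cell carries its value. The replicate 1 columns are below the mean for all genes except Fos in MPP at 0.56 and, at 0.02 each, Fosl2 and Egr1 in LT-HSC.

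Other gene groups split by the same number, in either direction. Averaged over the 9 genes without Fos, the deviation from the mean over 8 arrays ran from -0.89 to -0.42 in the replicate 1 arrays and from 0.12 to 0.64 in the other 5. For granulocyte and monocyte genes it ran from 0.67 to 1.20 in replicate 1 and from -0.96 to -0.25 in the others. The erythroid genes stood at 0.14 to 0.96 against -0.67 to -0.04, and those of stroma and endothelium at 0.25 to 1.42 against -0.43 to -0.32. The neutrophil gene S100a8 read 11.09, 11.29 and 10.60 in LT-HSC, ST-HSC and MPP replicate 1 and 6.61 to 9.86 on the other 5 arrays. B cell genes (0.05 to 0.31 against -0.29 to 0.04) and T and NK cell genes (-0.22 to 0.18 against -0.12 to 0.09) were closer between numbers. The part of other cells in the low AP-1 and EGR signals of replicate 1 was not tested.

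**Figure D4:**
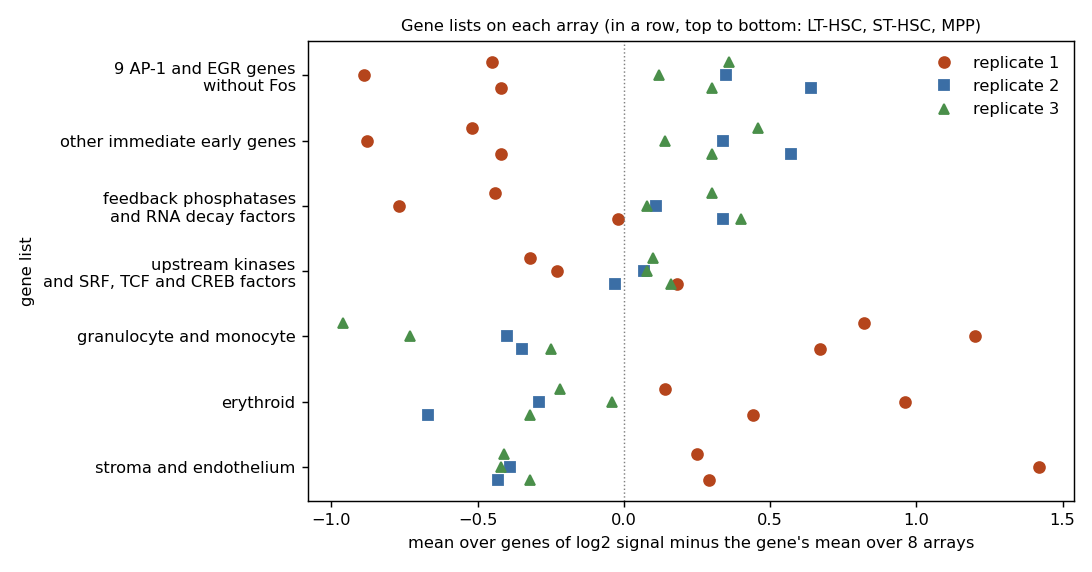
Mean over a list's genes of log2 signal minus the gene's mean over 8 arrays (x axis) for several gene lists (y axis); in each row the points from top to bottom are LT-HSC, ST-HSC and MPP, with circles, squares and triangles for replicates 1, 2 and 3. The 9 genes without Fos and the other immediate early genes lie below 0 in all replicate 1 arrays, where the granulocyte, erythroid and stromal lists lie above 0.

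Fos departed from the low replicate 1 values in MPP only. Its replicate 1 value less the mean of the population's other arrays was -0.68 in LT-HSC, -0.92 in ST-HSC and 0.67 in MPP. Over the 8 arrays, which are not independent of population and replicate number, the 36 pairs of the other 9 genes had Pearson correlations of 0.36 to 0.97 with a median of 0.80, and 0.47 to 0.99 with a median of 0.82 over the 6 arrays that remain without the first replicates of LT-HSC and ST-HSC. The highest over 8 arrays, at 0.97, included Jun with Atf3 and Fosb with Jund. Fos had -0.27 to 0.42 with the other 9, with a median of 0.19, and -0.64 to -0.35 with a median of -0.49 over the 6 arrays. Those 6 leave out the first replicates of LT-HSC and ST-HSC, where Fos, like the other 9, was lowest of its population. MPP replicate 2 shows the split in single values: it was the highest of the 8 arrays for Fosl2, Atf3, Jun, Junb, Fosb and Egr2, and the lowest for Fos. These correlations describe 8 arrays and carry no test.

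By a single measure, the correlation with the mean deviation of the 10 genes over the 8 arrays, the most alike genes outside the group were Map1lc3a, which encodes an autophagy protein, the chemokine-binding receptor Ccrl2, the MHC class II gene H2-Aa, the unfolded protein response factor Xbp1 and the insulin receptor substrate Irs2. Each reached 0.98, and 0.97, 0.94, 0.95, 0.96 and 0.93 in that order over the 6 arrays. They are the top of 220 genes over 0.9 among 17566 compared, or 1.25%. Ccrl2 read 6.70 and 8.35 in LT-HSC, 6.01, 8.08 and 7.78 in ST-HSC and 7.17, 8.95 and 8.22 in MPP, again lowest in replicate 1 of each.

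Most of the other immediate early genes were also low in the replicate 1 arrays, and none was called between populations. Of 27 tested other immediate early genes, 0 were called in any comparison, where 0.125% to 0.933% of all genes were. Lowest in replicate 1 of every population were 22 of them, beside 10.6% of all genes. Nr4a1, an orphan nuclear receptor, read 10.75 and 11.53 in LT-HSC, 9.62, 11.37 and 10.83 in ST-HSC and 10.53, 11.83 and 11.25 in MPP. It was lowest in the arrays numbered 1 within each population, and MPP minus ST-HSC was 0.60 (limma adjusted p = 0.982). The survival gene Mcl1 had 0.43 in that comparison (limma adjusted p = 0.752). The sign was positive in MPP minus ST-HSC for 24 of the 27 (median 0.39), beside 51.7% of all genes. It was positive in MPP minus LT-HSC for 16 (median 0.17) and in ST-HSC minus LT-HSC for 12 (median -0.17). Those comparisons had 57.2% and 52% of all genes positive. Without the 2 arrays least like the others, 14 of 27 were positive in MPP minus ST-HSC (median 0.01), and 6 of 27 in MPP minus LT-HSC (median -0.24). That setting keeps MPP replicate 1, where these genes had a mean deviation of -0.42.

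Feedback genes encode MAP kinase phosphatases, other inhibitors of the pathway and factors that bring short-lived mRNAs to decay. They had 0 of 16 called in each comparison, where 0.125% to 0.933% of all genes were. Lowest in replicate 1 of every population were 10 of 16, beside 10.6% of all genes. All 16 had positive MPP minus ST-HSC differences in the deposited values, beside 51.7% of all genes, with a median of 0.36. MPP minus LT-HSC was positive for 15 (median 0.29), or 13 with quantile normalization (median 0.19), and ST-HSC minus LT-HSC for 5 (median -0.14). Of all genes, 57.2% and 52% were positive in these comparisons in the deposited values. The 16 stayed positive in MPP minus ST-HSC with quantile normalization and with median centring. Without the 2 arrays least like the others 11 did (median 0.10), and in MPP minus LT-HSC 5 were positive (median -0.05). That setting keeps MPP replicate 1, where their mean deviation was -0.02, beside 0.34 and 0.40 in MPP replicates 2 and 3. Zfp36, whose protein binds AU-rich mRNA tails and speeds their decay, had 0.38 in MPP minus ST-HSC (limma adjusted p = 0.921), and its relative Zfp36l2 0.30 (limma adjusted p = 0.906). Dusp1, a MAP kinase phosphatase, had the highest correlation with Fos of the list genes, 0.96, and 0.39 with the mean deviation of the other 9. It read 9.98 and 10.45 in LT-HSC, 9.34, 9.91 and 10.16 in ST-HSC and 10.23, 9.64 and 10.54 in MPP, and like Fos it was lowest in MPP in replicate 2. Of 68 list genes, 5 exceeded 0.8 with Fos (Dusp1, Klf2, Srf, Spry1 and Zfp36l2) and 27 with the mean deviation of the other 9. A single gene and a mean over 9 genes are unlike measures, so these counts cannot be set against each other. Dusp1, Klf2, Srf and Spry1 were singled out after their values were seen.

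The upstream kinases and the SRF, TCF and CREB factors that drive these genes had 0 of 16 tested called in each comparison. Of all genes, 0.125% to 0.933% were called. Replicate 1 was the lowest array for 14 of the 16 in LT-HSC, 14 in ST-HSC and 3 in MPP, and in all 3 populations for 2, beside 10.6% of all genes, and their mean deviation was -0.32 to 0.18 in the replicate 1 arrays and -0.03 to 0.16 in the others. Elk3, a ternary complex factor that partners SRF, had 0.39 in MPP minus LT-HSC and Creb1, the cyclic AMP response factor, 0.32 (limma adjusted p = 0.591 and 0.606). The differences were positive for 13 of 16 in MPP minus LT-HSC (median 0.23), beside 57.2% of all genes. They were positive for 10 in ST-HSC minus LT-HSC (0.03) and 11 in MPP minus ST-HSC (0.12), beside 52% and 51.7%. With quantile normalization 10, 8 and 11 were positive, with medians of 0.13, -0.03 and 0.10. Without the 2 arrays least like the others, 10, 7 and 10 were positive, with medians of 0.04, -0.03 and 0.08. Of 9 tested relatives, which include other AP-1 and ATF proteins and the EGR co-repressors, 0 were called, beside the same shares of all genes. Lowest in replicate 1 of every population were 4 of the 9, beside 10.6% of all genes. Atf2 and Atf7, which are present before stimulation and are switched on by phosphorylation, had MPP minus LT-HSC differences of 0.25 and 0.20 (limma adjusted p = 0.628 and 0.763). Their list was positive for 4 of 9 in MPP minus LT-HSC (median -0.02), 4 in ST-HSC minus LT-HSC (-0.03) and 5 in MPP minus ST-HSC (0.16). Median centring turned the first 2 medians to 0.10 and 0.08, and without the 2 arrays least like the others all 3 were negative, at -0.21 (3 of 9 positive), -0.09 (1 of 9) and -0.10 (4 of 9).

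Comparing arrays of the same replicate number sets aside only a shift between numbers that is equal in both populations, as does a block. The replicate 1 shift, against the mean of the population's other arrays, had medians over the 10 of -1.05 in ST-HSC and -0.80 in MPP. It was unequal for Egr1, at -1.29 and -0.50, and nearly equal for Atf3, at -1.74 and -1.77. Differences within number 1 therefore still hold part of it. ST-HSC and MPP arrays of the same number deviated together from their population means, with correlations of 0.15, 0.23 and 0.21. Arrays of different numbers had -0.28 to 0.07. Deviations within a population sum to 0, so these correlations depend on each other. The arrays of the same number were taken as paired from these data, not from the labels. Within numbers 1, 2 and 3, MPP exceeded ST-HSC each time for 7 of the 10 genes, Fosb, Fosl2, Jun, Junb, Jund, Egr1 and Atf3, where 17.0% of all genes did. The 9 genes without Fos moved together over the arrays, with a median pair correlation of 0.80, so the 7 are not separate observations. Fosl2 differed by 0.55, 0.75 and 0.42, Junb by 0.83, 0.34 and 0.58, Jund by 0.77, 0.37 and 0.41, and Atf3 by 0.50, 0.81 and 0.24. Jun differed by 0.40, 0.16 and 0.01, and Egr1 by 1.01, 0.12 and 0.32. Fos went both ways, at 1.43, -0.69 and 0.37, and Egr3 too, at 0.25, -0.48 and -0.44. With the replicate number as a block in limma, the MPP minus ST-HSC differences stayed at 0.57 for Fosl2 (SE 0.17, 95% interval 0.21 to 0.93) and 0.59 for Junb (SE 0.17, 95% interval 0.22 to 0.95), each at an adjusted p of 0.135. In this comparison none of the 10 passed with that block, although 5 had an unadjusted p under 0.05, beside 9.78% of all genes, and 1.52% of all genes were called. With only ST-HSC and MPP in the block fit, an unplanned alternative, 6 of the 10 had an unadjusted limma p under 0.05, beside 11.2% of all genes. None of the 10 was called there, where 1.64% of all genes were, and limma adjusted p was 0.118 for Fosl2 and 0.124 for Junb.

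In ST-HSC minus LT-HSC, where numbers 1 and 3 are shared and the labels do not tie them, 7 genes were negative in both, Fos, Fosl2, Jun, Junb, Jund, Egr1 and Atf3, beside 29.8% of all genes, and Fosb was positive in both. Fosl2 differed by -0.97 and -0.92, Junb by -0.84 and -0.59 and Egr1 by -1.15 and -0.08. MPP minus LT-HSC was positive in both numbers for Fos, Fosb and Jund (34.2% of all genes) and negative in both for Fosl2, Junb, Egr2 and Egr3 (20.9%), with Junb rounding to 0 in either. These 3 comparisons share arrays, and their counts are not independent of each other.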

How the data were processed

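Total RNA was extracted with Trizol, amplified and biotin-labelled with the Ovation Pico WTA and Encore kits, per the labels' protocols, and 1 array was made per sample. The deposited table holds log2 values for 33649 probe sets, made with RMA per the submitters' processing notes; its version and the probe annotation behind it are not given in the sources used here. That they are log2 was inferred from their range, 2.05 to 12.94, since no source states it. RMA compresses small differences of dim probe sets, and amplification can add spread between arrays. Array medians lay between 4.95 and 5.22, and the number of arrays limits the precision. No raw signals were analysed here.

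Genes were named from the platform annotation: 23521 probe sets had 1 symbol, 1814 several and 8314 none, and 1082 genes had several probe sets, of which the one with the highest mean was used. Genes with a mean at or above 3.88, the 25th percentile of probe sets, were tested. Limma 3.58.1 in R 4.3.3 fitted 1 mean per population over all 8 arrays with eBayes (5 residual and 5.93 prior degrees of freedom) and Benjamini-Hochberg adjustment over 17576 genes, and a simulation was used to check the scripts. The members and gene lists, and some alternatives, were chosen with earlier results of these data known. Besides the 10 members, named genes were called list genes and the 2 list genes with the highest mean, the 5 genes most alike, Slamf1, Cd34 and S100a8. Samples were grouped by title. The pairing of replicate numbers was checked by correlating deviations from population means: 0.15, 0.23 and 0.21 for ST-HSC and MPP arrays of the same number, 0.54 and 0.47 for LT-HSC and ST-HSC, and -0.16 and 0.10 for LT-HSC and MPP. The last 2 pairs of populations share 2 numbers only, so pairing was taken for ST-HSC and MPP alone, as a finding from the data, not the labels. Alternatives were other filters and scalings, array weights, a mean-dependent prior, the replicate block, the other probe set, 2 groups alone and arrays left out. Promoter sequences came from RefSeq on GRCm38.p6.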

Additional observations from a re-analysis of the deposited data

How the results depend on the processing

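Of 580 recomputed differences of the 10 genes, 511 kept their direction and their side of the threshold, 68 reversed and 1 became called. With the replicate block, 1 gene was called in ST-HSC minus LT-HSC and 1 in the F test: Fosl2, at -0.99 (SE 0.20, 95% interval -1.41 to -0.57, adjusted p = 0.0126, where 2.69% of all genes were called) and an F test adjusted p of 0.0215. LT-HSC shares 2 numbers with ST-HSC, which does not establish pairing. In all other settings 0 were called. The block changed no other call.

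The cause of the reversals was not tested. In ST-HSC minus LT-HSC, quantile normalization gave -0.14 for Atf3, -0.07 for Egr2 and -0.17 for Jund, median centring 0.06 and array weights 0.12 for Jun, the lower probe set -0.04 for Jund, and the block -0.35 for Atf3, -0.12 for Egr2, -0.13 for Egr3 and -0.16 for Jund. In MPP minus LT-HSC, median centring gave 0.01 for Fos and 0.02 for Fosl2, array weights 0.23 for Fos, and the block -0.04 for Egr1, -0.36 for Egr3, 0.15 for Fos and -0.06 for Junb. Without the 2 arrays that stood apart, MPP minus LT-HSC was -0.36 for Atf3, -0.32 for Egr3, -0.14 for Jun, -0.25 for Junb and -0.03 for Jund. ST-HSC minus LT-HSC was then -0.30 for Atf3, -0.15 for Egr2 and -0.16 for Jund, and MPP minus ST-HSC -0.06 for Atf3 and -0.05 for Jun. With all arrays numbered 1 left out, an alternative chosen after seeing the data, ST-HSC minus LT-HSC was -0.30 for Atf3, -0.15 for Egr2 and -0.16 for Jund, MPP minus ST-HSC 0.01 for Egr2 and -0.16 for Fos, and MPP minus LT-HSC -0.01 for Jun.

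Leaving out 1 array at a time, ranges that crossed 0 in MPP minus LT-HSC were -0.36 to 1.51 for Atf3, -0.40 to 0.09 for Egr2, -0.32 to 0.42 for Egr3, -0.45 to 0.42 for Fos, -0.46 to 0.19 for Fosl2, -0.14 to 0.44 for Jun, -0.25 to 0.70 for Junb and -0.03 to 1.07 for Jund. In ST-HSC minus LT-HSC they were -0.88 to 0.99 for Atf3, -0.61 to 0.07 for Egr1, -0.23 to 0.24 for Egr2, -0.20 to 0.85 for Egr3, -0.17 to 0.65 for Fosb, -0.34 to 0.24 for Jun, -0.83 to 0.12 for Junb and -0.55 to 0.55 for Jund. In MPP minus ST-HSC they were -0.06 to 1.11 for Atf3, -0.38 to 0.09 for Egr2, -0.81 to 0.25 for Egr3 and -0.05 to 0.33 for Jun. The median of the 10 ran from -0.29 to 0.43, -0.49 to 0.24 and 0.04 to 0.63 in MPP minus LT-HSC, ST-HSC minus LT-HSC and MPP minus ST-HSC. With an LT-HSC array left out, the lone LT-HSC array is assumed to vary like the other groups.

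Calls over all genes ranged more: 5 to 615 around 22 in MPP minus LT-HSC, 0 to 825 around 164 in ST-HSC minus LT-HSC and 1 to 525 around 34 in MPP minus ST-HSC. Depth of signal limits Egr3, which was near background.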
